A study of Rattus norvegicus with 6 samples.

Results

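Isolated accessible regions of the rat kidney were examined, that is, open chromatin regions on chromosomes 1 to 20 that lay at least 50 kb, edge to edge, from both the previous and the next region of the same chromosome. The rule left out the first and last region of each chromosome and found 2689 members among 151302 regions in all, or 1.81% of the 148701 autosomal regions (95% exact binomial interval 1.74% to 1.88%). The members were chosen by their measured spacing, so gaps, runs and counts per window or chromosome are given as a description. Width took no part in the rule. The list is merged by a rule that is not given, however, and joining close regions widens them. Width and spacing may therefore not be independent, and the part of merging in the widths was not tested.

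The regions came from ATAC-seq of kidney, an assay in which a transposase cuts DNA that is free of nucleosomes, on the Dahl S (SS/Jr) strain, which becomes hypertensive on salt. There were 6 libraries, 3 from untreated rats and 3 from rats given 1,3-Butanediol, which the body turns into the ketone β-hydroxybutyrate, at 20% in the water. The series describes 6 weeks of supplementation of males and females, and the labels give neither sex nor age for a library. The study asked whether chromatin occupancy changed with the ketone body. The deposited values were 1 merged list of positions that names no library, so the groups were not compared and no region is assigned to either. Depth per library was unknown. Intervals below cover counting error over regions only, regions are not replicates of a condition, and no test was made.

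In a tissue such as kidney, accessible regions cluster at promoters and at the enhancers around active genes. Long stretches with few open regions are typical of gene-poor DNA held in closed chromatin. A lone accessible region in such a stretch can be a distant enhancer, a binding site of the insulator protein CTCF, which anchors chromatin loops, or a promoter far from other genes. Positions are in rn6, 1-based, and overlap with genes or sequence motifs was not analysed here.

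Isolated regions were narrower than the rest. Their median width was 336 bp (95% interval 327 to 342 bp, n = 2689), with an interquartile range of 257 to 483 bp. The other 146012 autosomal regions had a median of 400 bp (399 to 401 bp) and an interquartile range of 286 to 606 bp, so the medians differed by 64 bp, or 1.19 times. The isolated median was the lower one on 20 of 20 autosomes. Regions under 300 bp made up 39.4% of isolated regions against 28.2% of the others, and regions of 500 bp or more made up 23.8% against 35.7%.

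The difference from all other autosomal regions appeared at both ends of the width range. Of the isolated regions 182 had a width of exactly 200 bp, the narrowest in the list, or 6.77% (95% interval 5.85% to 7.78%) against 4.58% of the others. This share was the higher one on 15 of 20 autosomes. Regions piled up at 200 bp, so this width may be a floor of the calling and not their true extent, which was not tested. At the other end 115 isolated regions were 1 kb or wider, which was 4.28% (3.54% to 5.11%) against 7.83% (7.69% to 7.97%) of the others. The share of such wide regions was the lower one on 20 of 20 autosomes, though on most of them its interval took in the share of the others. Regions of 2 kb or more were too few for a comparison, with 3 isolated regions (0.112%, 95% interval 0.0230% to 0.326%) against 0.154% of the others. Together the isolated regions covered 1.13 Mb, or 1.53% of the accessible bases of the autosomes.

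Regions that bordered a long gap on one side only fell between the extremes. These 12536 regions had a median width of 371 bp (95% interval 367 to 375 bp), while the 133436 regions with both gaps under 50 kb had a median of 403 bp (401 to 405 bp). The remaining 40 autosomal regions were the chromosome ends. Of the one-sided regions 6.44% were 1 kb or wider and 6.17% were at the narrowest width. The latter share lay inside the isolated interval of 5.85% to 7.78%. Of regions 40 to 50 kb from their nearest neighbour, 6.87% were at the narrowest width, so the excess there was not particular to isolated regions. The isolated median was below the one-sided median on 18 of 20 autosomes, the exceptions being chromosome 7, with 360 against 356 bp, and chromosome 18, with 372 against 369.5 bp.

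**Figure D1:**
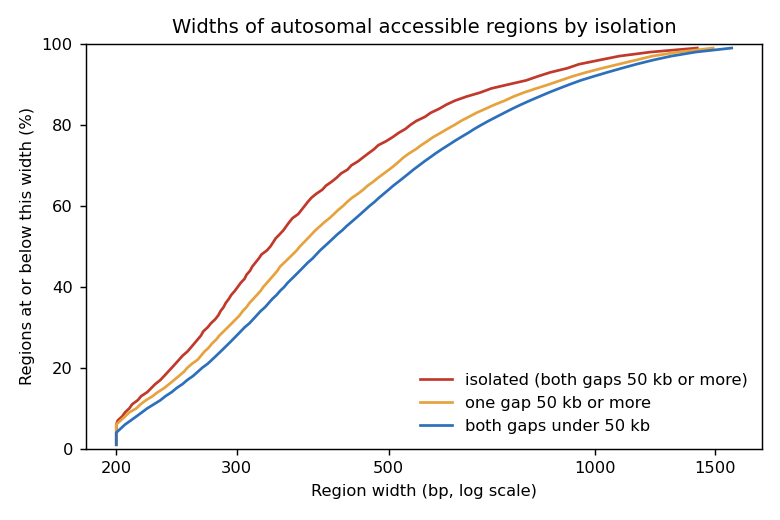
Cumulative width distributions of autosomal accessible regions; the x axis is width in bp on a log scale and the y axis the percent of regions at or below that width, from the 1st to the 99th percentile. The curve of isolated regions (median 336 bp) lies left of the one-sided regions (371 bp), which lie left of the regions with both gaps under 50 kb (403 bp).

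Width did not decline steadily with distance to the nearest region. Regions whose smaller gap was under 1 kb had a median width of 390 bp, and the median was highest, at 451 bp (95% interval 446 to 456 bp), for smaller gaps of 5 to 10 kb. It then fell through 413 bp at 10 to 20 kb, 378 bp at 20 to 30 kb, 361 bp at 30 to 40 kb and 344 bp at 40 to 50 kb. Among isolated regions the median was 345 bp (334 to 356 bp, n = 1137) at 50 to 75 kb, 335.5 bp (317 to 351 bp, n = 538) at 75 to 100 kb, 328 bp (317 to 344 bp, n = 679) at 100 to 200 kb and 321 bp (308 to 336 bp, n = 335) at 200 kb or more. The intervals of these 4 isolated classes all overlapped, though those of the first and last only barely. Overlap of intervals does not settle whether the order was within counting error, and no test was made.

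The share of wide regions followed a similar course. It was 6.12% below 1 kb, 4.77% (95% interval 4.48% to 5.07%) at 1 to 2 kb, 13.2% (12.8% to 13.7%) at 5 to 10 kb, 5.85% at 30 to 40 kb and 5.07% at 40 to 50 kb. In isolated regions it was 6.07% (4.75% to 7.62%) at 50 to 75 kb, 3.53% (2.14% to 5.46%) at 75 to 100 kb, 2.50% (1.47% to 3.98%) at 100 to 200 kb and 2.99% (1.44% to 5.42%) at 200 kb or more. Only the intervals at 50 to 75 kb and at 100 to 200 kb did not overlap among these 4. Across the 2689 isolated regions the Spearman rho of width with the smaller gap was only -0.07, and with the larger gap -0.07. These correlations are across regions of 1 list, and neighbouring regions share a gap.

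**Figure D2:**
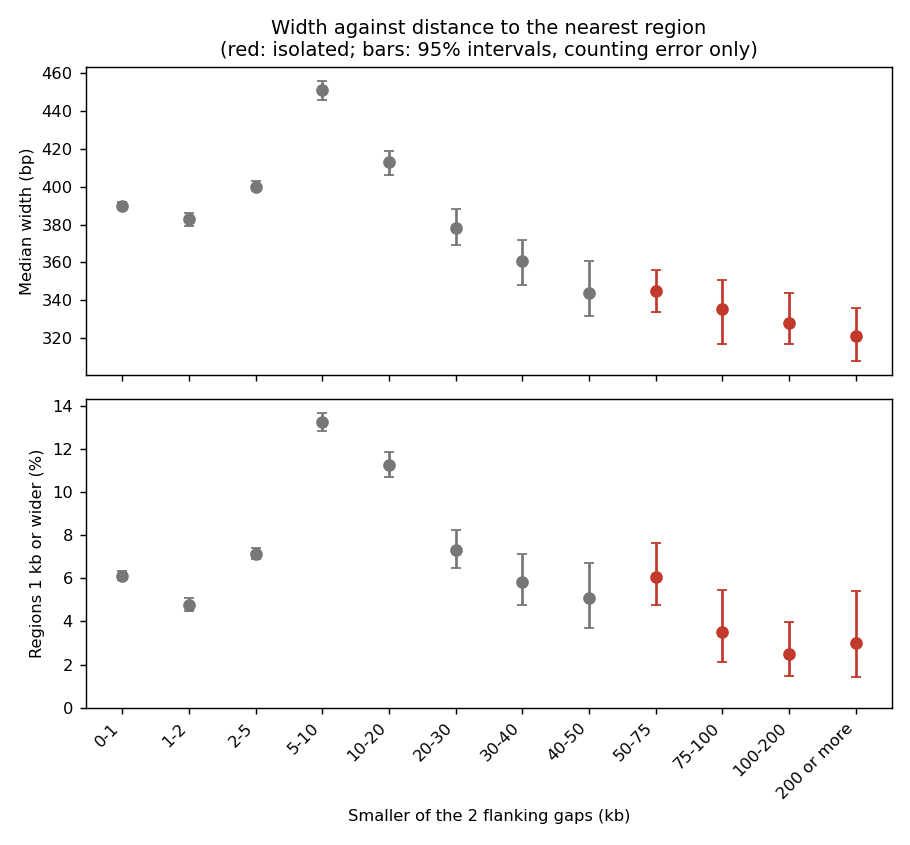
Median width in bp (upper panel) and percent of regions 1 kb or wider (lower panel) of autosomal regions against the smaller of their flanking gaps in kb; isolated regions are red, others grey, and bars are 95% intervals. Both measures are highest at 5 to 10 kb (451 bp and 13.2%); the isolated classes range over 321 to 345 bp and 2.50% to 6.07%, and the wide share at 1 to 2 kb (4.77%) and at 30 to 50 kb lies within that range.

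The limit of 50 kb cut through a continuous range. The 3 members just inside it were chr10:101923479-101923963 with a smaller gap of 50004 bp and a width of 485 bp, chr2:237032207-237032674 with 50011 bp and a width of 468 bp, and chr8:6303945-6304796 with 50017 bp and a width of 852 bp. Just outside were chr16:79350015-79350214 with a smaller gap of 49979 bp and a width of 200 bp, chr5:135735073-135736196 with 49942 bp and a width of 1124 bp, and chr14:61618179-61618623 with 49938 bp and a width of 445 bp. The 287 members with a smaller gap of 50 to 55 kb had a median width of 355 bp (95% interval 334 to 381 bp), and the 399 regions at 45 to 50 kb had 335 bp (323 to 361 bp). The lower width of isolated regions thus did not begin at the limit.

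The widest isolated region was chr2:549221-551554, 2334 bp long, 62.7 kb from a neighbour of 229 bp on the left and 74.7 kb from one of 262 bp on the right. Next were chr8:102158755-102160805 with 2051 bp and chr1:190070942-190072953 with 2012 bp, the latter almost midway between its neighbours, 68.6 kb and 68.5 kb away. Chromosome 1 gave 3 more of the 10 widest. Of these, chr1:194916223-194918171 was 1949 bp long and had wide neighbours on both sides, of 1185 and 1192 bp. The region chr1:38083407-38085143 was 1737 bp long and had a neighbour of 1956 bp on its left, 58.0 kb away. The third, chr1:39468100-39470014, was 1915 bp long and had narrower neighbours of 235 and 773 bp.

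The other 4 of the 10 widest lay on chromosomes 2, 14, 10 and 8. They were chr2:104403642-104405507 with 1866 bp, chr14:81253679-81255471 with 1793 bp, chr10:53037435-53039112 with 1678 bp and chr8:407280-408941 with 1662 bp. The region on chromosome 10 was the most remote of the 10 widest, 116 kb from its nearest neighbour, and the smaller gaps of the others were shorter. The 1-Mb windows of the 10 widest held 16 to 83 regions, so none of them lay in an almost empty megabase.

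Wide isolated regions tended to lie in fuller surroundings than narrow ones. The 115 members of 1 kb or more lay in 1-Mb windows with a median of 34 regions, against 20 for the 2574 narrower members, and their median smaller gap was 69.2 kb against 84.5 kb. They were found on 18 autosomes, and chromosomes 19 and 20 had none. At least 1 of the neighbours was itself 1 kb or wider for 16 of the 115 (13.9%, 95% interval 8.17% to 21.6%) and for 217 of the 2574 (8.43%, 7.39% to 9.57%). Of the 182 members at the narrowest width, 9 had such a neighbour (4.95%, 2.29% to 9.18%). An isolated region was wider than both of its neighbours in 827 cases, or 30.8%. The same share was not computed for other regions, so it is not read as a trait of the members.

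The smaller gaps of the 10 most remote members ranged from 804 to 1521 kb. The most remote of all, chr2:134658285-134658523, was 239 bp wide and lay 1836 kb from the region on its left and 1521 kb from the one on its right. It was followed by chr18:9677890-9678375 (486 bp wide, smaller gap 1297 kb), chr6:17478673-17478986 (314 bp, 1212 kb), chr11:22855863-22856117 (255 bp, 1077 kb) and chr13:31092119-31092444 (326 bp, 1073 kb). The next, chr13:32528569-32528920, was 352 bp wide and was the right-hand neighbour of chr13:31092119-31092444 across a gap of 1436 kb. A width of exactly 200 bp was found for chr12:35212933-35213132 and chr3:77450265-77450464, and the set was completed by chr9:33122913-33123224 with 312 bp and chr7:87012043-87012324 with 282 bp. These 10 widths ranged from 200 to 486 bp with a median of 297 bp, against a median of 336 bp for all 2689 members.

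The 2 gaps beside each isolated region were ranked by size. The smaller gap had a median of 83.8 kb (interquartile range 61.9 to 133 kb) and the larger one a median of 185 kb (112 to 346 kb). The larger gap was more than 2 times the smaller in 1180 members, or 43.9%. The same share was not computed for other regions, so it is not read as a trait of the members. The larger gap lay on the left in 1350 members and on the right in 1339, so neither side prevailed. Both gaps reached 100 kb in 1014 members (37.7%), 500 kb in 49 and 1 Mb in 5. The longest gap beside a member, 5667 kb on chromosome 7, had an isolated region at each end, chr7:3791319-3791802 with 484 bp and chr7:9458368-9458755 with 388 bp.

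Few regions thus divided a large part of the autosomes. Gaps of 50 kb or more made up 6.03% of the 148681 autosomal gaps but 54.7% of the bases in gaps. An isolated region bordered 4289 of these 8961 long gaps (47.9%). The bordered gaps spanned 849 Mb, which was 32.5% of the summed autosomal span of 2614 Mb, measured from first to last region. Assembly gaps and repeats in which reads cannot be placed were not masked, and their part in the long gaps was not tested.

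Isolated regions formed runs. By the rule each neighbour of a member has a gap of at least 50 kb on that side. The share of members beside another member is therefore raised by construction. Another isolated region was the direct neighbour of 1684 members (62.6%), which formed 595 runs of 2 or more, and 494 members had isolated regions on both sides. Those 494 had a median width of 312 bp (95% interval 300 to 332 bp) and lay in windows with a median of 8 regions. The 1190 members with 1 isolated neighbour had a median width of 336 bp (324 to 343 bp) in windows of 18 regions. The 1005 members with none had 347 bp (334 to 356 bp) in windows of 35 regions. Width and local density therefore declined together along this order, and the medians of members with 2 and with no isolated neighbours were apart by more than their counting intervals.

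The longest run was 14 consecutive isolated regions at chr2:129138757-136522111, over 7.38 Mb. Their widths were 200 to 700 bp with a median of 298 bp, and the gaps between them ranged from 56.1 to 1836 kb. The most remote member of the list was the twelfth of the run. The second longest, 11 regions at chr16:87818189-89835182, took up 2.02 Mb and had a median width of 301 bp. The next run had 10 regions and was the most compact of the 3, at chr2:152167144-152996916, within 0.830 Mb. All 10 of its members lay in the window chr2:152000001-153000000, which held no other region and had more isolated regions than any other window. Its inner gaps ranged from 62.4 to 144 kb with a median of 84.9 kb, and its widths ran from 218 to 1079 bp. The compact run and the window were chosen after their values were seen. Runs of 5 or more numbered 52 and held 330 members.

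**Figure D3:**
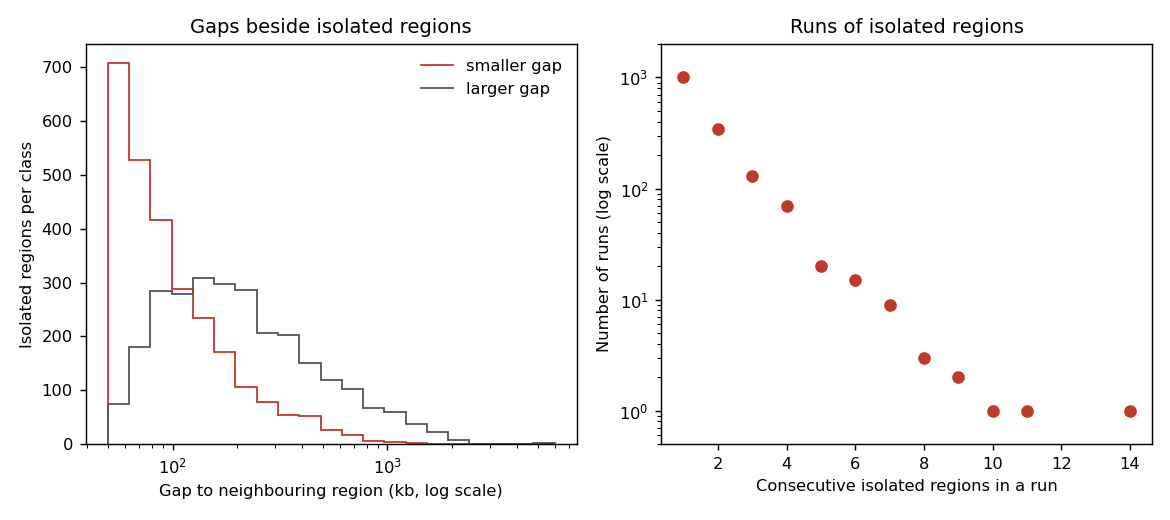
Left, number of isolated regions per gap class on a log axis in kb, for the smaller and the larger flanking gap (medians 83.8 and 185 kb); right, number of runs on a log axis against the number of consecutive isolated regions in the run. Most runs are single regions (1005), and 1 run holds 14.

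The regions across the gap from isolated regions were also compared. There were 3200 such neighbours that were not isolated themselves, with a median width of 359 bp (95% interval 352 to 368 bp), and a share of 5.19% at 1 kb or more. One-sided regions that faced a region that was not isolated across the long gap numbered 9340 and had a median of 375 bp (370 to 380 bp), with 6.86% at 1 kb or wider. Regions at the far side of a gap from an isolated region were thus the narrower of these sets, though wider than the isolated regions themselves.

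Isolation was not limited to empty megabases. Members lay in 1-Mb windows with a median of 21 regions (interquartile range 9 to 44), while other autosomal regions lay in windows with a median of 92. The 2689 members were spread over 1435 windows, of which 685 held a single member and 42 held 5 or more. Only 48 members were the sole region of their window. At the other extreme, 522 members (19.4%) lay in windows with 51 regions or more. The fullest of these windows held 144 regions and contained chr10:94009297-94009542, 246 bp wide and 63.4 kb from its nearest neighbour. The next held 140 regions around chr10:4511358-4511680 (323 bp), and then came 139 around chr9:20963798-20964315 (518 bp). These 3 were chosen after their window counts were seen.

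Members in fuller windows were wider. The median was 316.5 bp (95% interval 301 to 329 bp, n = 432) in windows of 1 to 5 regions, 322 bp (314 to 337 bp, n = 911) in windows of 6 to 20, 339 bp (324 to 354 bp, n = 824) in windows of 21 to 50 and 372 bp (353 to 386 bp, n = 522) in windows of 51 or more. The share of members of 1 kb or more went from 3.24% and 3.07% in the sparser classes to 5.10% and 5.94% in the fuller ones. Across members the Spearman rho of width with the window count was 0.11, a weak relation across regions of 1 list. Regions with both gaps under 50 kb varied in the same direction, from 379 bp in windows of 6 to 20 regions to 386 bp and 406 bp in the fuller classes. One-sided regions did not rise throughout. Their medians were 366.5 bp in windows of 1 to 5, 354 bp in 6 to 20, 367 bp in 21 to 50 and 382 bp in 51 or more.

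By median, isolated regions were the narrowest within each class of windows as well. In windows of 6 to 20 regions the medians were 322 bp for isolated regions, 354 bp (345 to 364 bp) for one-sided regions and 379 bp (367 to 388 bp) for regions with both gaps under 50 kb. In windows of 51 or more they were 372, 382 (376 to 390) and 406 bp, and the intervals of isolated and one-sided regions overlapped. In windows of 1 to 5 regions only 44 regions had both gaps under 50 kb, and their interval of 275 to 487 bp allowed no comparison. The share of regions of 1 kb or more differed less evenly. In windows of 1 to 5 it was 3.24% in isolated and 3.05% in one-sided regions. In windows of 6 to 20 it was 3.07% against 4.81%, and in windows of 21 to 50 5.10% against 5.58%. In windows of 51 or more it was 5.94% against 7.80%. Regions with both gaps under 50 kb had 5.40%, 6.86% and 8.16% in these fuller classes. The isolated share at the narrowest width was above the one-sided share in the sparser classes. It was not in windows of 21 to 50 (6.43% against 6.48%) or of 51 or more (5.17% against 5.90%). Over the 1302 windows that held members and other regions, the member median was below the median of the others in 717 windows (55.1%), above it in 584 and equal in 1. The median difference within a window was -22 bp, smaller than the difference of 64 bp over all autosomes.

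**Figure D4:**
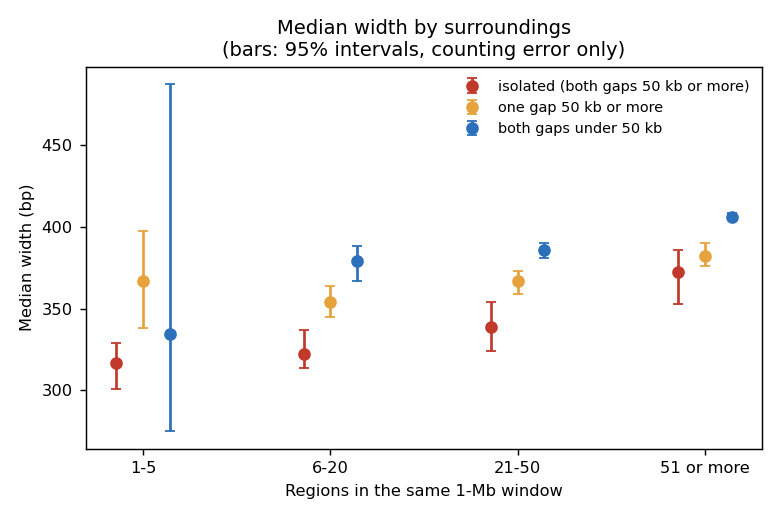
Median width in bp of autosomal regions against the number of regions in the same 1-Mb window, for isolated, one-sided and closely neighboured regions; bars are 95% intervals. Isolated regions rise from 316.5 to 372 bp and lie below the closely neighboured regions in the 3 fuller classes.

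Autosomes differed in their share of isolated regions. It averaged 1.79% ± 0.59 (SD over 20 autosomes) and was highest on chromosome 2, where 337 of 11805 regions were isolated (2.85%, 95% interval 2.56% to 3.17%). Chromosomes 11 (2.58%, 2.13% to 3.11%) and 16 (2.57%, 2.13% to 3.08%) followed and could not be told from it within their intervals. The lowest share was on chromosome 10 with 82 of 9561 (0.858%, 0.683% to 1.06%), then chromosome 12 with 0.896%, chromosome 20 with 0.962% and chromosome 19 with 1.13%. The highest share was 3.33 times the lowest. These last 4 were also the 4 autosomes with most regions per Mb, as spacing and density are bound together. Per length the members were more even, from 0.664 per Mb on chromosome 12 to 1.28 per Mb on chromosome 16.

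Some autosomes were close in density. Chromosomes 13 and 16 had nearly the same density, 49.2 and 49.7 regions per Mb, but 1.82% (95% interval 1.49% to 2.21%) and 2.57% (2.13% to 3.08%) of their regions were isolated, and these intervals overlapped only slightly. Chromosomes 1 and 7 had 59.98 and 59.91 regions per Mb and shares of 1.69% and 1.48%, whose intervals overlapped. Chromosomes 1 and 2, the longest, together held 623 members, 23.2% of all. They also held 16953 and 11805 of the 148701 autosomal regions, and spanned 283 and 266 Mb of 2614 Mb. The count of members is therefore largely a matter of their size.

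The share of wide members varied between autosomes. Chromosome 1 held 24 of the 115 isolated regions of 1 kb or more, and 8.39% of its members (95% interval 5.45% to 12.2%) were that wide against 8.53% of its other regions. Chromosome 18 came next with 7 of 105 members, or 6.67% (2.72% to 13.3%) against 7.38%. On both, as on most autosomes, the interval took in the share of the other regions. It lay below that share only on chromosomes 3, 5, 7, 8, 16 and 19. Without chromosome 1 the share of wide regions was 3.79% (95% interval 3.06% to 4.63%) in members and 7.74% in other regions, and the median widths were 334 and 400 bp. On chromosome 3 only 2 of 184 members reached 1 kb (1.09%, 0.132% to 3.87%, against 8.03%), and on chromosome 16 only 1 of 116 (0.862%, 0.0218% to 4.71%, against 7.29%). The isolated median ranged from 299 bp (286 to 362 bp, n = 35) on chromosome 12 to 372 bp (342 to 437 bp, n = 105) on chromosome 18. The isolated intervals overlapped between these 2 autosomes, and on chromosomes 17, 18 and 20 the interval took in the median of the other regions.

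**Figure D5:**
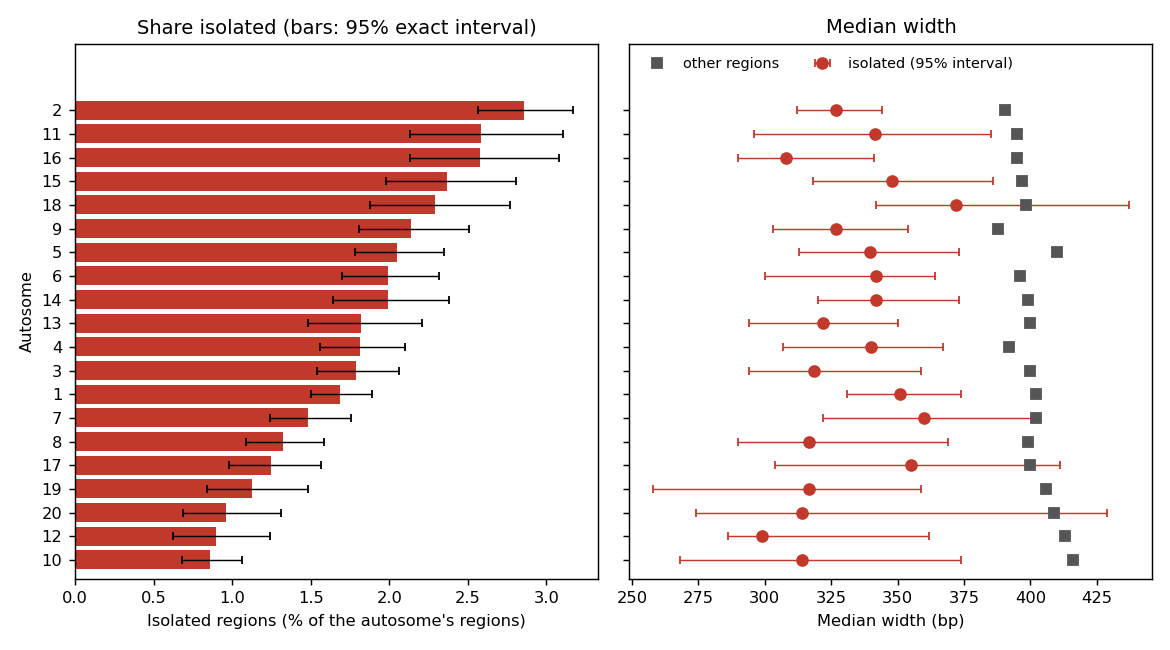
Left, percent of the regions of each autosome that are isolated, with 95% exact binomial intervals; right, median width in bp of isolated regions with 95% intervals and of the other regions of the autosome. Chromosome 2 has the highest share (2.85%) and chromosome 10 the lowest (0.858%), and the isolated median is the lower one on 20 of 20 autosomes.

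With the autosomes pooled, isolated regions were found in all parts of the span. When the span of each autosome from its first to its last region was cut into 10 equal parts and the autosomes were pooled, the parts held 208 to 329 members. The share of regions that were isolated ranged from 1.09% in the last part to 2.93% in the third. It was lowest in parts 8, 9 and 10, with 1.26%, 1.37% and 1.09%. Single autosomes were not examined in this way. Median widths of the members in these parts ranged from 320 to 352.5 bp, without an order along the chromosome.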

How the data were processed

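The authors deposited 1 list of merged regions for the 6 ATAC-seq libraries, with chromosome, start, end and a running name. Per the submitters' processing notes the build was rn6, and FastQC, Trim Galore and cutadapt were used. Not given in the sources used are the aligner, the peak caller, any read shift and the merging rule. Starts were read as 0-based and are printed 1-based. Regions were sorted, gaps measured edge to edge, and members kept where both gaps were 50000 bp or more on chromosomes 1 to 20. The members, limits and named regions were chosen with earlier results of these data known. Named are the 10 widest and 10 most remote members, the 3 on either side of the limit, the longest run and the extreme autosomes. Intervals are exact binomial for shares and order-statistic for medians (Python 3.11.15, numpy 2.4.6, pandas 2.3.3, scipy 1.17.1, matplotlib 3.10.9). Windows are 1 Mb, assigned by midpoint, with incomplete end windows kept. The procedure was tested on simulated data. Alternatives changed the gap, the width minimum, joining and how gaps are measured. Leaving out libraries, and sequence and genes, which need an rn6 reference, were not analysed here.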

Additional observations from a re-analysis of the deposited data

How the results depend on the processing

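In each of 6 alternative settings the median width and the share of wide regions were lower in isolated than in other regions. A gap of 25 kb gave 6527 members and one of 100 kb gave 1014. Their median widths were 350 and 324 bp, and their shares of regions of 1 kb or more were 5.39% and 2.66%. The highest share on an autosome became 6.06% (chromosome 16) and 1.17% (chromosome 2), the lowest 2.14% (chromosome 10) and 0.248% (chromosome 19). Members beside another member made up 67.3% and 56.0%. Without regions under 300 bp the median was 441 bp against 498 bp for other regions, the wide share 7.28% against 10.9%, and the highest autosome was chromosome 11 with 3.80%. With regions under 500 bp apart joined, the median was 347 bp against 445 bp, the wide share 7.15% against 15.0%, the highest autosome had 3.41%, and 65.2% of members lay beside another. Without regions at the narrowest width the median was 349 bp against 414 bp. Widths shift upward by construction when narrow regions are removed or close ones joined. Measuring gaps between midpoints left each of these values within its counting interval, with 2721 members. No paired analysis was possible because positions are pooled over libraries, and for that reason no library was left out. With depth unknown, a gap may hold regions below the authors' threshold.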

Other observations

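The same spacing rule was applied to the X chromosome, which the members leave out. There 226 of 2580 regions were isolated, or 8.76% (95% exact binomial interval 7.70% to 9.92%), above the 2.85% of chromosome 2, the highest autosome. Spacing and density are bound together, and the regions per Mb of the X are not given here. The higher share is therefore a description and is not read as a trait of the X. Isolated regions of the X had a median width of 338.5 bp (315 to 369 bp), close to the autosomal 336 bp, and the other 2354 regions of the X had 376 bp (362 to 389 bp). Wide regions were not fewer among them: 24 of the 226 reached 1 kb (10.6%, 6.92% to 15.4%), against 196 of the other regions (8.33%, 7.24% to 9.52%). The autosomal isolated share was 4.28% (3.54% to 5.11%), whose interval did not reach that of the X. The copy number of the X depends on sex, which the labels give for no library, and its part was not tested.

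Some small groups of regions were isolated as a group. After regions less than 500 bp apart were joined, 2854 autosomal units met the 50 kb rule, and 165 of them were made of 2 or more listed regions. Of these, 157 were pairs and 8 held 3 regions. Their median length, inner gaps included, was 1058 bp, and the longest measured 2934 bp. None of the 338 regions in these groups counts as isolated in the list as deposited, since each has a neighbour within 500 bp.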
